A study of Mus musculus with 90 samples.

Results

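The lysosomal genes described here are 42 named genes that encode lysosomal membrane proteins, the digestive enzymes of the lysosome lumen, subunits of its proton pump, progranulin and the transcription factors that control many of them. They were taken by name from a gene list, which was chosen with earlier results of these data known. All 42 had a row in every library, among 32697 gene rows in all, and all 42 passed the filter on low counts in every tissue. RNA was sequenced from brown adipose tissue (BAT), inguinal white adipose tissue (iWAT), gastrocnemius muscle and hypothalamus of male mice of 4 genotypes. UCP1 KO mice lack Uncoupling protein 1, dKO mice lack both UCP1 and FGF21, FGF21 KO mice lack the hormone Fibroblast growth factor 21, and WT mice carry neither deletion. The design text names the second gene of the double knockout once as FGF12, and every sample label gives FGF21. All 4 genotypes were reared at 30 °C, moved at an age of 10 to 12 weeks to 18 °C for 12 days and then to 5 °C for 3 weeks, and had food withdrawn for 2 to 3 h before tissue was taken. All groups therefore carry the cold exposure, so each comparison is between genotypes in the cold. Each tissue had 6 UCP1 KO and 5 FGF21 KO libraries. There were 6 dKO libraries per tissue, except 5 in hypothalamus, and 6 WT libraries per tissue, except 5 in BAT. The labels do not tie libraries of different tissues to the same mouse, and p-values measure only the spread between the labelled samples.

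Lysosomes break down proteins, glycans, glycogen and lipids that arrive by endocytosis or autophagy. The vacuolar ATPase (V-ATPase) acidifies them, NPC1 and NPC2 export cholesterol, and LAMP1 and LAMP2 line the membrane. TFEB, TFE3 and MITF, the MiT/TFE factors, bind a short palindromic element in the promoters of many lysosomal genes. In adipose tissue, lysosomal enzymes are made by adipocytes and in large amounts by macrophages.

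The element bound by MiT/TFE factors has CACGTG at its core and is often preceded by GT on one strand. RefSeq promoters (GRCm38.p6) were matched by symbol for 36 of the 42 genes, and the 250 bases before each start were searched on both strands. Of these genes, 6 had several promoters, and a match in any of them counted. CACGTG was present in 11 of the 36 genes (30.6%), against 1854 of all 27025 genes with a promoter in the table (6.86%). The longer form GTCACGTG, read on either strand and overlapping the shorter one, was present in 8 of the 36 (22.2%), namely Ctsa, Ctsd, Gla, Glb1, Lamp1, Mcoln1, Naglu and Sgsh, against 571 of 27025 genes (2.11%). A match describes the letters in this window and is not evidence of binding. The 5 promoters printed here, out of those 8, share that longer form. The genes behind them moved in 4 different ways in UCP1 KO fat, as the values further on give. Whether the element plays a part in the changes was not tested. Each line is the 120 bases before the start, 5′ to 3′ on the gene's strand, and the capitals mark GTCACGTG or its reverse complement CACGTGAC.
Lamp1: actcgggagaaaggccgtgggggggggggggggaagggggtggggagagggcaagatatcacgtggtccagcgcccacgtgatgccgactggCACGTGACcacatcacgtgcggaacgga
Mcoln1: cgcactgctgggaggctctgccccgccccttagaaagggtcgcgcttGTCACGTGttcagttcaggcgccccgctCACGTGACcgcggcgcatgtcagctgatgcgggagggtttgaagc
Ctsd: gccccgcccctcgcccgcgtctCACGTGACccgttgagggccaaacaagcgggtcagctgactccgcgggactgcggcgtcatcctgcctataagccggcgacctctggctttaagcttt
Ctsa: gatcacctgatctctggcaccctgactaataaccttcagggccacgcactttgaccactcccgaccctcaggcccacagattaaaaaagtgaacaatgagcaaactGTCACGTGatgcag
Naglu: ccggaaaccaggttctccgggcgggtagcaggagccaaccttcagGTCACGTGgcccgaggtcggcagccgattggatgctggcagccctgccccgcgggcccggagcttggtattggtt
These windows lie at chr8:13159041-13159160 on the plus strand for Lamp1, at chr8:3500399-3500518 on the plus strand for Mcoln1 and at chr7:142387828-142387947 on the minus strand for Ctsd. The window of Ctsa is chr2:164833653-164833772 on the plus strand and that of Naglu is chr11:101069974-101070093 on the plus strand. Ctsa has another promoter, at chr2:164832622-164832921 on the plus strand, which holds 0 copies of CACGTG. The Mcoln1 window holds the element in both orientations. Lamp1 and Mcoln1 were higher in UCP1 KO than in WT in both fat depots, Ctsd was lower in BAT and higher in iWAT, Ctsa was higher in BAT and lower in iWAT, and Naglu was lower in iWAT. Of those not printed, Gla was higher in BAT only, Glb1 was higher in BAT and lower in iWAT, and Sgsh was lower in both.

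The 90 libraries held 18.1 to 69.9 M counts (M, 1e6), with a median of 46 M. Values are CPM (counts per 1e6 counts) scaled by edgeR's TMM factors, and each difference is a log2 fold change with its standard error (SE) from edgeR's quasi-likelihood F test. A gene is said to have risen or fallen, or to be called, when its p, adjusted by Benjamini-Hochberg over all genes tested in that tissue, is under 0.05. In BAT, Ucp1 had 880 to 1390 CPM in UCP1 KO and 1140 to 1490 CPM in dKO, against 6460 to 10100 CPM in WT and 10600 to 11600 CPM in FGF21 KO. Fgf21 had 0 to 1 counts in dKO and 0 to 13 counts in FGF21 KO BAT, against 10.1 to 38.9 CPM in UCP1 KO and 0.171 to 1.73 CPM in WT. In iWAT, Ucp1 had 1030 to 1770 CPM in UCP1 KO against 104 to 1170 CPM in WT, so its count does not check the labels of that depot. Which exons the allele lacks is not given in the sources used here, and the count covers the whole gene. Markers of adipocytes, neurons and muscle fibres were highest in the tissue each belongs to. Fibre genes summed to 76.4 to 27960 CPM in BAT and 68.2 to 63100 CPM in iWAT, and lymphocyte genes to 9.70 to 2042 CPM in iWAT, so fat libraries differed widely in RNA of these kinds. Genes of the choroid plexus spanned 78.3 to 1887 CPM in hypothalamus.

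At baseline in the cold, cathepsin D, the aspartic protease of the lysosome, was the most abundant of the 42 transcripts per kilobase in WT fat, at 1175 ± 119 CPM per kb in BAT (SD, n = 5) and 610 ± 199 CPM per kb in iWAT (SD, n = 6). Psap, the precursor of the saposins that help sphingolipid breakdown, led in WT muscle at 436 ± 17.0 CPM per kb and in WT hypothalamus at 397 ± 10.3 CPM per kb (SD, n = 6 each). The lowest levels per kilobase in WT were those of Mitf in BAT (1.18) and iWAT (1.73), Glb1 in muscle (1.57) and Ctsk in hypothalamus (0.936). The 42 genes together took 1.33 ± 0.146% of all counts in UCP1 KO BAT, against 0.917 ± 0.0438% in WT BAT (SD, n = 6 and 5). In TMM-scaled CPM, which weighs libraries by the bulk of their genes, the same sums overlapped, at 10770 to 12420 in UCP1 KO and 9703 to 11380 in WT BAT. In iWAT the share of all counts was 1.06 ± 0.0428% in UCP1 KO and 0.995 ± 0.0528% in WT (SD, n = 6 each), which overlapped, while the summed CPM was 10370 to 13840 in UCP1 KO and 7197 to 11160 in WT.

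**Figure D1:**
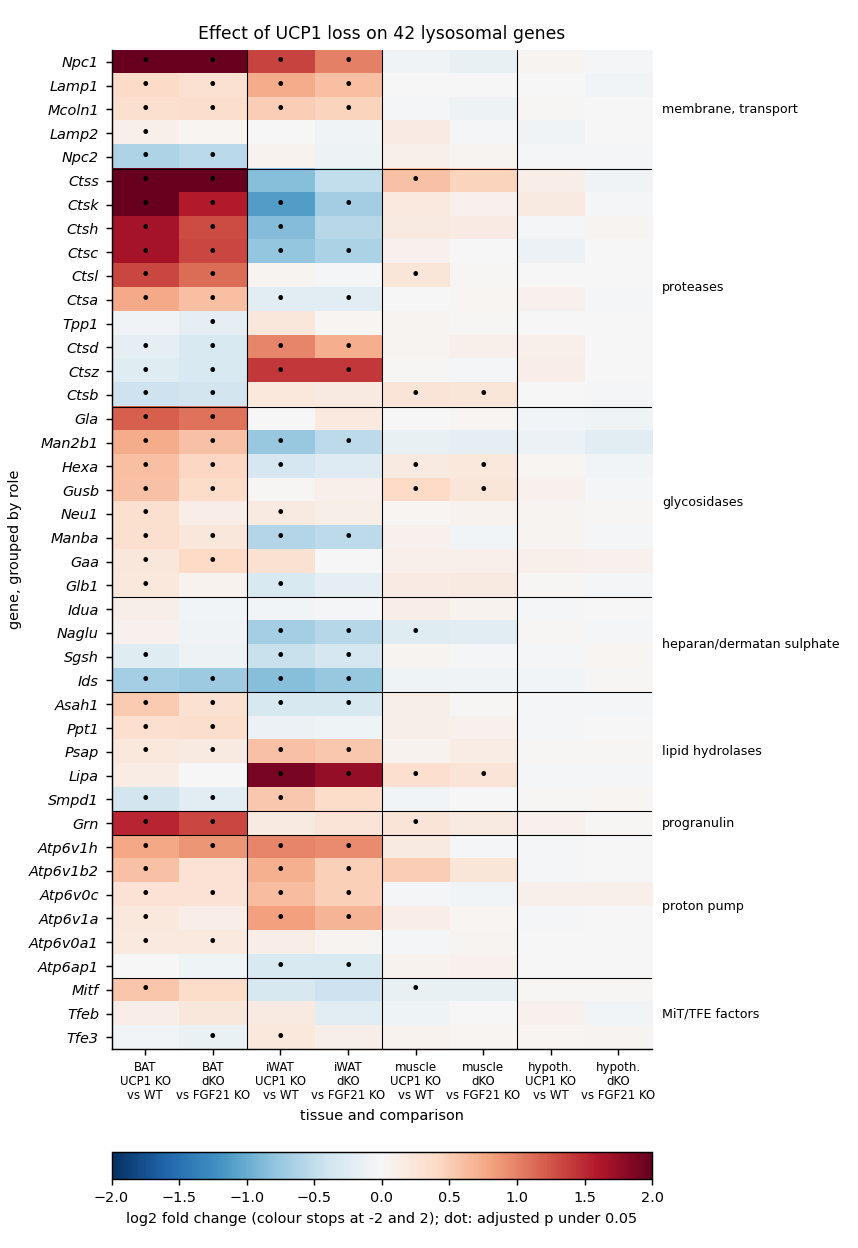
Log2 fold changes of the 42 lysosomal genes (rows, by role) for UCP1 KO against WT and for dKO against FGF21 KO in each of the 4 tissues (columns). Colour gives the fold change and stops at 2 in either direction, and a dot marks an adjusted p under 0.05. Most dots lie in the BAT and iWAT columns, few in muscle and none in hypothalamus.

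In BAT, loss of UCP1 came with more RNA for most of the 42 genes. Of the 42, 28 rose in UCP1 KO against WT, 7 fell and 7 were not called. The background was high, since 30.2% of all 16032 genes tested rose and 29.9% fell. The median log2 fold change of the 42 was 0.31, against -0.02 over all genes tested. All 8 glycosidases rose, as did 4 of 5 membrane and transport genes, 5 of 6 V-ATPase genes, 6 of 10 proteases and progranulin. The 4 genes grouped for breakdown of heparan and dermatan sulfate gave 0 higher and 2 lower.

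Among membrane genes in BAT, Npc1, which moves cholesterol out of the lysosome, rose the most. Npc1 had 160 to 329 CPM with a median of 235 in UCP1 KO, against 54.4, 55.7, 58.5, 62.4 and 63.7 CPM in WT. The lowest UCP1 KO library was far above the highest WT library. The log2 fold change was 2.00 ± 0.13 (adjusted p = 7.21e-11). Npc2, the soluble protein that hands cholesterol to NPC1, moved the other way, with 220 to 320 CPM in UCP1 KO and a median of 271, against 353, 372, 434, 464 and 475 CPM in WT. Those groups also did not overlap, and the log2 fold change was -0.62 ± 0.10 (adjusted p = 1.15e-05). Lamp1, a main glycoprotein of the lysosomal membrane, had 919 to 1021 CPM with a median of 962 in UCP1 KO, against 703 to 789 CPM in WT. The groups were apart, with a log2 fold change of 0.38 ± 0.05 (adjusted p = 5.5e-07). Mcoln1, the calcium release channel TRPML1, had 47.6 to 56.1 CPM with a median of 50.2 in UCP1 KO, against 37.9 to 43.6 CPM in WT. It was higher in every UCP1 KO library, by 0.32 ± 0.04 (adjusted p = 1.44e-06). Lamp2, the membrane protein with a form needed for chaperone-mediated autophagy, rose by only 0.11 ± 0.04 with overlapping groups. That call was lost in 4 of the fits that each left out 1 library, among them WT 2, WT 4, UCP1 KO 1 and UCP1 KO 3, which gave 0.089 to 0.10.

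The BAT proteases split. Cathepsin S, which trims the invariant chain in antigen-presenting cells, had 62.5 to 144 CPM with a median of 99.1 in UCP1 KO, against 8.91, 9.38, 9.69, 10.7 and 11.3 CPM in WT. No library of one group came near the other, and the log2 fold change of 3.35 ± 0.35 (adjusted p = 1.21e-07) was the highest of the 42. Cathepsin K, a collagen-degrading protease best known from osteoclasts, had 10.3 to 14.9 CPM with a median of 14.6 in UCP1 KO, against 2.35, 2.68, 2.98, 3.69 and 3.75 CPM in WT. Ctsk was thus separate between the groups, at 2.16 ± 0.20 (adjusted p = 7.79e-09). Cathepsin C, the dipeptidyl peptidase that activates granule proteases of leukocytes, had 66.9 to 79.0 CPM with a median of 71.7 in UCP1 KO, against 17.6, 18.4, 19.1, 25.0 and 35.4 CPM in WT. The log2 fold change of Ctsc was 1.66 ± 0.17 (adjusted p = 7.54e-08). Ctsh, an aminopeptidase, rose by 1.67 ± 0.21 and Ctsl, a broad cysteine protease, by 1.33 ± 0.13, in both cases with no overlap. Cathepsin A, the carboxypeptidase that also protects beta-galactosidase and neuraminidase, had 115 to 162 CPM with a median of 131 in UCP1 KO, against 73.2 to 83.2 CPM in WT. Ctsa rose by 0.76 ± 0.07 (adjusted p = 4.73e-09) with the groups apart.

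The 3 BAT proteases that fell were Ctsb, Ctsd and Ctsz. Cathepsin B, an abundant cysteine protease, had 1440 to 1696 CPM with a median of 1609 in UCP1 KO, against 1771, 2143, 2181, 2213 and 2225 CPM in WT. Even the low WT library was above every UCP1 KO library, and the log2 fold change was -0.41 ± 0.07 (adjusted p = 1.9e-05). Cathepsin Z, a carboxypeptidase, had 336 to 455 CPM with a median of 411 in UCP1 KO, against 385, 478, 480, 494 and 526 CPM in WT. The Ctsz groups overlapped through the lowest WT library, and the log2 fold change was -0.24 ± 0.08 (adjusted p = 0.013). Ctsd had 1767 to 2285 CPM in UCP1 KO with a median of 2056, against 2060, 2149, 2288, 2570 and 2598 CPM in WT. The groups overlapped, and the log2 fold change of -0.20 ± 0.07 (adjusted p = 0.0193) was not called when WT 1, WT 4 or UCP1 KO 1 was left out (-0.16 in each case, to 2 decimals). It was also not called without the other genotypes in the fit (adjusted p = 0.0716). Exons of Ctsd overlap those of Gm49369 on the same strand over 31.5% of their length, and exons of Ctsb overlap Fdft1 on the opposite strand over 16.3%. Whether counting used strand is not given in the sources used here, so reads of such pairs may be shared. Tpp1, a tripeptidyl peptidase, was not called, at -0.07 ± 0.05.

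The 8 glycosidases strip sugars from glycoproteins, glycolipids and glycogen. In BAT, lysosomal alpha-mannosidase (Man2b1) had 66.2 to 83.3 CPM with a median of 73.5 in UCP1 KO, against 41.1, 43.6, 44.1, 45.0 and 45.7 CPM in WT. The groups did not overlap, at 0.75 ± 0.06 (adjusted p = 1.27e-09). Alpha-galactosidase (Gla) had 9.43 to 13.7 CPM with a median of 11.3 in UCP1 KO, against 4.08, 4.45, 4.61, 4.68 and 7.18 CPM in WT. Its change of 1.20 ± 0.13 (adjusted p = 4.61e-08) was the highest of the 8. Hexa, the alpha subunit of beta-hexosaminidase, rose by 0.60 ± 0.08, and Gusb, beta-glucuronidase, by 0.59 ± 0.07, both with the groups apart. Beta-mannosidase (Manba) rose by 0.32 ± 0.09, sialidase 1 (Neu1) by 0.32 ± 0.09, acid alpha-glucosidase (Gaa) by 0.22 ± 0.08 and beta-galactosidase (Glb1) by 0.20 ± 0.08, with overlapping groups in all 4. Of these, Gaa lost its call when WT 1, WT 4 or UCP1 KO 5 was left out, at 0.17 to 0.19. Glb1 lost its call in 7 of the fits that each left out 1 library, namely WT 1, WT 3, WT 5 and UCP1 KO 1, 3, 5 and 6, at 0.17 to 0.21.

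Of the 4 enzymes grouped for heparan and dermatan sulfate breakdown, 2 fell in BAT and 2 were not called, while Gusb, Hexa and Glb1, which also act on glycosaminoglycans, rose as given above. Iduronate 2-sulfatase (Ids), which starts the removal of sulfated iduronate from heparan and dermatan sulfate, had 21.4 to 23.4 CPM with a median of 22.2 in UCP1 KO BAT, against 34.3, 34.6, 36.1, 36.8 and 36.8 CPM in WT. All UCP1 KO libraries lay in a narrow band below all WT libraries. The log2 fold change was -0.68 ± 0.06 (adjusted p = 5.66e-09), the lowest of the 42. Sulfamidase (Sgsh) fell by 0.24 on the log2 scale (SE 0.08, adjusted p = 0.0142) with overlap, and its exons overlap Card14 on the opposite strand over 21.9% of their length. Idua, alpha-L-iduronidase, and Naglu, alpha-N-acetylglucosaminidase, were not called, at 0.12 ± 0.09 and 0.08 ± 0.07.

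Of the lipid-handling enzymes in BAT, acid ceramidase (Asah1) had 54.6 to 62.7 CPM with a median of 59.4 in UCP1 KO, against 37.8, 37.9, 41.8, 43.5 and 44.1 CPM in WT. It was higher in every UCP1 KO library, at 0.52 ± 0.06 (adjusted p = 3.13e-07). Acid sphingomyelinase (Smpd1), which acts a step earlier on the same lipids, had 87.5 to 102 CPM with a median of 95.3 in UCP1 KO, against 112, 115, 126, 130 and 131 CPM in WT. Those groups were apart in the opposite direction, at -0.37 ± 0.05 (adjusted p = 2.4e-06). Ppt1, which removes palmitate from proteins, rose by 0.34 ± 0.06. Psap, grouped with these enzymes but itself the saposin precursor, rose by 0.21 ± 0.06. Lysosomal acid lipase (Lipa), which hydrolyses triglycerides and cholesteryl esters, was not called in BAT, with 268 to 322 CPM and a median of 307 in UCP1 KO, against 231, 235, 239, 290 and 351 CPM in WT. Progranulin (Grn), a lysosomal and secreted glycoprotein, had 327 to 407 CPM with a median of 359 in UCP1 KO, against 115, 124, 127, 128 and 133 CPM in WT. The change of Grn, 1.53 ± 0.06, had the smallest adjusted p of the 42 (5.72e-14), and the groups were far apart.

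Of the V-ATPase genes in BAT, Atp6v1h, a regulatory subunit of the cytosolic V1 sector, had 155 to 178 CPM with a median of 166 in UCP1 KO, against 84.7, 93.3, 96.6, 100 and 111 CPM in WT. The groups were apart, at 0.77 ± 0.06 (adjusted p = 4.6e-10). Atp6v1a, the catalytic subunit of V1, rose by 0.21 ± 0.06, Atp6v0a1 of the membrane sector by 0.20 ± 0.06 and the proteolipid Atp6v0c by 0.30 ± 0.11, all with overlap. The call of Atp6v0c was lost without WT 5 or UCP1 KO 5, at 0.26 and 0.23. The accessory subunit Atp6ap1 was not called, at -0.01 ± 0.04. Of the MiT/TFE factors in BAT, Mitf rose by 0.55 ± 0.16 (adjusted p = 0.00533), with 6.74 to 10.2 CPM in UCP1 KO and 4.49 to 7.44 CPM in WT, which overlapped. Tfeb (14.7 to 18.8 CPM in UCP1 KO, 11 to 18.9 in WT) and Tfe3 (43.6 to 46.4 CPM in UCP1 KO, 42.5 to 48.7 in WT) were not called, at 0.13 ± 0.11 and -0.05 ± 0.04.

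**Figure D2:**
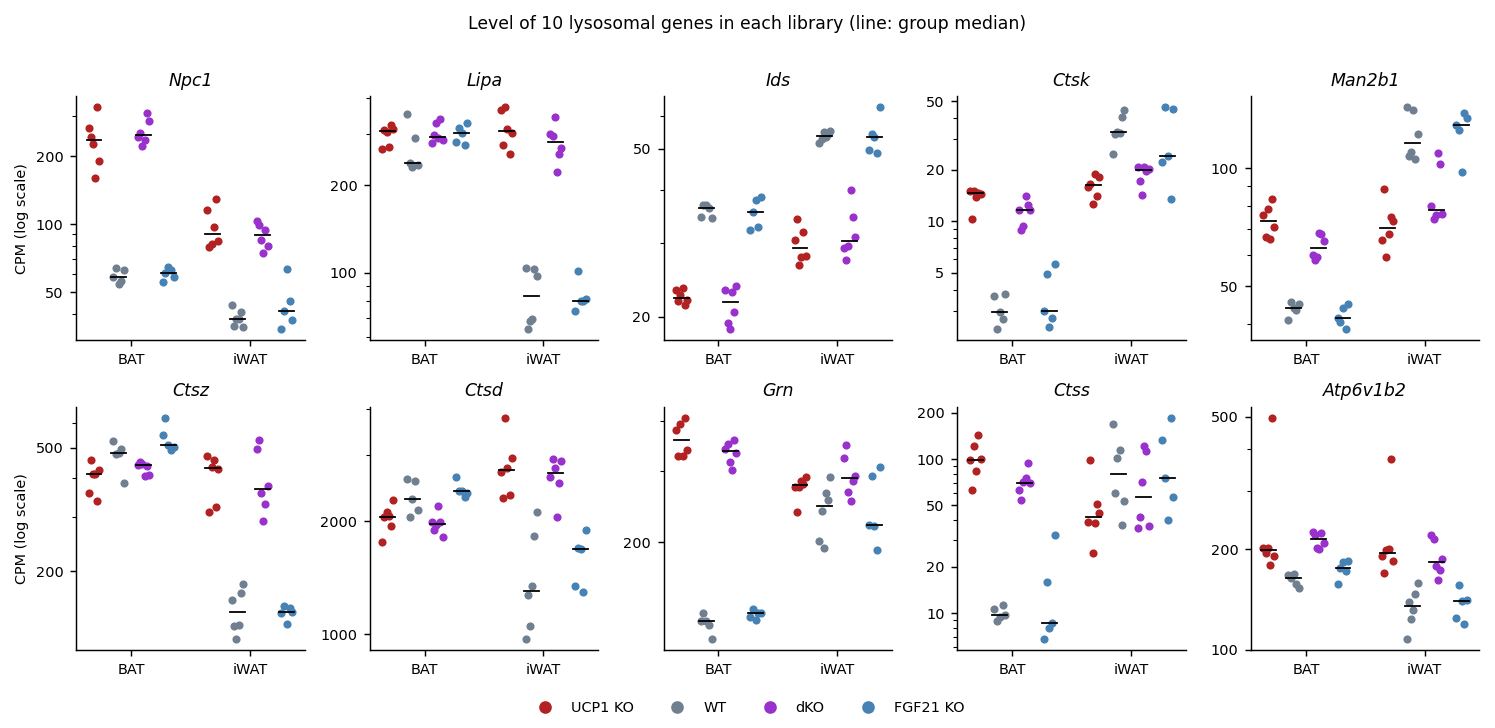
CPM (log axis) of 10 lysosomal genes in each BAT and iWAT library, with UCP1 KO left of WT and dKO left of FGF21 KO. Each point is 1 library. Npc1 is higher in both UCP1-deficient groups of both depots, Ids is lower in all 4 such groups, and Ctsk is higher in UCP1-deficient BAT and lower in UCP1 KO iWAT.

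In iWAT the same knockout left the 42 genes evenly split. Between UCP1 KO and WT, 14 rose, 13 fell and 15 were not called, where 22.3% of all 16751 genes tested rose and 24% fell. The median log2 fold change was 0.06 for the 42 and -0.13 over all genes tested. Membrane genes gave 3 higher and 0 lower of 5, V-ATPase genes 4 higher and 1 lower of 6, and lipid hydrolases, counted with Psap, 3 higher and 1 lower of 5. Glycosidases gave 1 higher and 4 lower of 8, heparan and dermatan sulfate enzymes 0 higher and 3 lower of 4, and proteases 2 higher and 4 lower of 10.

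Lipa rose the most in iWAT, with 255 to 371 CPM and a median of 307 in UCP1 KO, against 63.9 to 104 CPM and a median of 83.3 in WT. The lowest UCP1 KO library was far above the highest WT library, and the log2 fold change was 1.89 ± 0.14 (adjusted p = 7.7e-09). Ctsz had 310 to 471 CPM with a median of 429 in UCP1 KO, against 121 to 182 CPM with a median of 148 in WT. Those groups were far apart too, at 1.42 ± 0.15 (adjusted p = 2.23e-07). Npc1 had 79.3 to 129 CPM with a median of 90.8 in UCP1 KO, against 35.0 to 43.8 CPM with a median of 37.9 in WT, at 1.35 ± 0.14 (adjusted p = 2.71e-07). As in BAT, no Npc1 value of one group reached the other. Ctsd had 2304 to 3783 CPM with a median of 2740 in UCP1 KO, against 969 to 2119 CPM with a median of 1306 in WT, at 0.97 ± 0.18 (adjusted p = 0.000153). Psap rose by 0.59 ± 0.10, Lamp1 by 0.74 ± 0.14 and Mcoln1 by 0.49 ± 0.08, all with groups apart. Smpd1 rose by 0.54 ± 0.17 and Neu1 by 0.19 ± 0.06 with overlap. The call of Neu1 was lost without WT 3 or without UCP1 KO 3, 5 or 6, at 0.16 to 0.19.

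Of the 4 V-ATPase genes besides Atp6v1b2 and Atp6v0a1 in iWAT, 3 rose. Atp6v1a had 179 to 236 CPM with a median of 199 in UCP1 KO, against 90.6 to 140 CPM with a median of 110 in WT, at 0.83 ± 0.11 (adjusted p = 2.87e-06). Atp6v1h had 152 to 202 CPM with a median of 188 in UCP1 KO, against 66.1 to 122 CPM with a median of 91.2 in WT, at 0.98 ± 0.14 (adjusted p = 8.61e-06). Both sets of groups were separate. Atp6v0c rose by 0.62 ± 0.17 with overlap, and its pseudogenes have no row of their own, so reads could be split among copies. Atp6ap1 fell by 0.30 on the log2 scale (SE 0.08, adjusted p = 0.00372), and Atp6v0a1 was not called at 0.13 ± 0.12.

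The genes that fell in iWAT included Ids again. Ids had 26.6 to 34.0 CPM with a median of 29.2 in UCP1 KO, against 51.8 to 55.1 CPM with a median of 53.8 in WT. The WT libraries formed a tight band above all UCP1 KO libraries, and the log2 fold change was -0.85 ± 0.08 (adjusted p = 1.53e-07). Naglu had 12.6 to 17.2 CPM with a median of 14.3 in UCP1 KO, against 20.2 to 26.7 CPM with a median of 24.3 in WT, at -0.69 ± 0.10 (adjusted p = 1.3e-05). Manba had 10.8 to 14.1 CPM with a median of 12.3 in UCP1 KO, against 16.8 to 21.5 CPM with a median of 18.4 in WT, at -0.58 ± 0.08 (adjusted p = 4.57e-06). Neither pair of groups overlapped. Man2b1 had 59.4 to 88.8 CPM with a median of 70.5 in UCP1 KO, against 106 to 143 CPM with a median of 116 in WT, at -0.76 ± 0.12 (adjusted p = 3.42e-05), again with no overlap. Sgsh fell by 0.44 on the log2 scale (SE 0.11). Of the other iWAT glycosidases, Glb1 fell by 0.30 (SE 0.08) and Hexa by 0.34 (SE 0.11), on the log2 scale. The call of Hexa was lost without WT 6, at -0.27, and without the 3 iWAT libraries rich in muscle RNA (adjusted p = 0.0664). Gaa, Gla and Gusb were not called, at 0.30 ± 0.20, 0.00 ± 0.11 and 0.02 ± 0.06.

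Of the 3 MiT/TFE factors in iWAT, 1 was called. Tfe3 had 41.7 to 49.9 CPM with a median of 48.2 in UCP1 KO, against 34.9 to 46.6 CPM with a median of 41.7 in WT, at 0.21 ± 0.08 (adjusted p = 0.0275). The groups overlapped, and the call was lost when any 1 of the UCP1 KO libraries 1, 3, 4, 5 or 6 was left out, at 0.19 to 0.21. Tfeb had 12.6 to 17.2 CPM in UCP1 KO and 8.97 to 17.0 CPM in WT and was not called, at 0.17 ± 0.18. Mitf had 6.72 to 12.5 CPM in UCP1 KO and 8.24 to 12.9 CPM in WT and was not called, at -0.32 ± 0.16 (adjusted p = 0.106). Without the libraries rich in lymphocyte RNA, a setting chosen after seeing the data that left 3 UCP1 KO and 2 WT libraries, Mitf was called at -0.60 (adjusted p = 0.00579) and Tfe3 was not (adjusted p = 0.087).

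**Figure D3:**
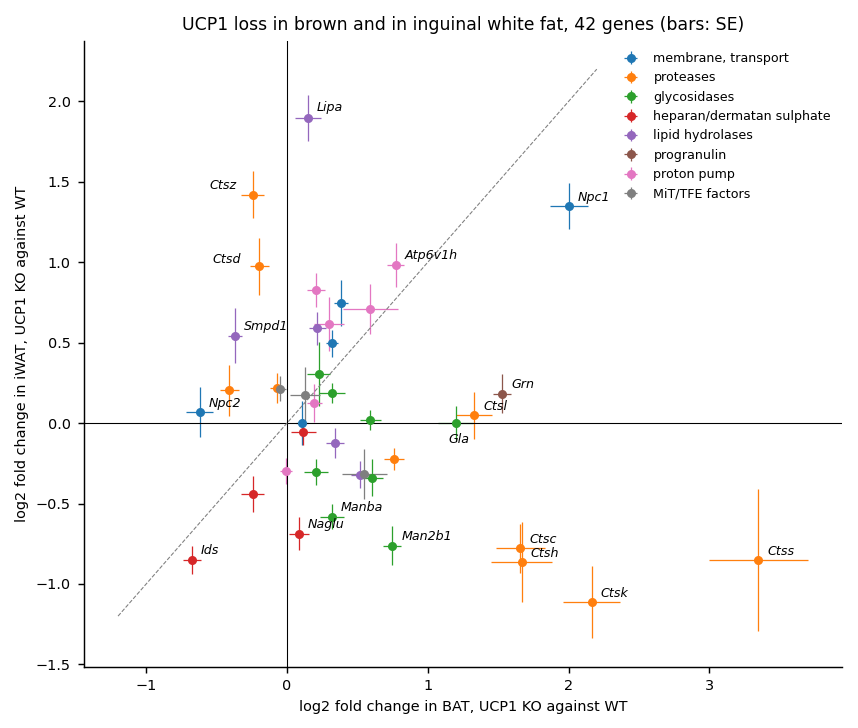
Log2 fold change of UCP1 KO against WT in iWAT (vertical) and in BAT (horizontal) for each of the 42 genes, with standard errors as bars and colour by role. Cathepsins S, K, C and H lie at high BAT and negative iWAT values, Lipa and Ctsz lie high in iWAT with BAT values near 0.15 and -0.24, and Npc1 is high in both.

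Whether the effect of UCP1 KO differed between the 2 depots was tested in a joint fit of both tissues. The labels do not tie libraries to mice, and the fit treats BAT and iWAT libraries as independent, as do its SE and p. There, 19 of the 42 genes had a higher UCP1 KO effect in BAT than in iWAT and 12 a lower one, where 25% and 27.7% of all 17186 genes tested did. The median of this difference was 0.12 for the 42 and 0.03 over all genes. By the calls within each depot, 9 genes rose in both (Lamp1, Npc1, Neu1, Psap, Mcoln1, Atp6v1h, Atp6v0c, Atp6v1a and Atp6v1b2) and 2 fell in both (Ids and Sgsh). Another 9 rose in BAT and fell in iWAT (Ctsa, Ctsc, Ctsh, Ctsk, Glb1, Hexa, Man2b1, Manba and Asah1), and 3 fell in BAT and rose in iWAT (Ctsd, Ctsz and Smpd1). As shares of the 42 these are 21.4% and 4.76% in the same direction and 21.4% and 7.14% in opposite ones. Of the 15715 genes tested in both depots, 8.13% rose in both, 7.35% fell in both, 5.87% rose in BAT and fell in iWAT, and 8.44% fell in BAT and rose in iWAT. All 12 genes with opposite directions were called in the test of the difference. It uses the same libraries as the calls that picked them and is no separate support.

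The largest of these opposite shifts was that of Ctsk, whose effect was higher in BAT than in iWAT by 3.22 ± 0.31 on the log2 scale (adjusted p = 4.79e-11). In iWAT, Ctsk had 12.5 to 19.0 CPM with a median of 16.2 in UCP1 KO, against 24.6 to 44.6 CPM with a median of 33.0 in WT. With CPM scaled within each depot, UCP1 KO libraries of the depots lay close together, at 10.3 to 14.9 CPM in BAT and 12.5 to 19.0 CPM in iWAT, while the WT libraries of the depots lay far apart. Ctsc showed the same arrangement, with 69.5 to 113 CPM and a median of 87.1 in UCP1 KO iWAT, against 123 to 191 CPM and a median of 146 in WT iWAT. Its difference between depots was 2.38 ± 0.23 (adjusted p = 5.87e-11). Man2b1 differed by 1.46 ± 0.14 (adjusted p = 2.67e-11), Ctsa by 0.93 ± 0.10 (adjusted p = 2.18e-10) and Manba by 0.84 ± 0.11 (adjusted p = 4.81e-08). Ctsa in iWAT had 95.9 to 117 CPM with a median of 109 in UCP1 KO, against 110 to 138 CPM with a median of 128 in WT, which overlapped slightly. Ctsz differed in the other direction, by -1.73 ± 0.18 (adjusted p = 3.44e-10). Beyond the 12 opposite genes, the difference was 4.16 ± 0.58 for Ctss, 1.29 ± 0.14 for Grn and -1.81 ± 0.18 for Lipa, each called. For Lamp1 the difference of -0.42 ± 0.16 lost its call in 7 of the fits that each left out 1 library, with WT 1 or WT 4 of BAT or WT 1, WT 3, UCP1 KO 1, UCP1 KO 3 or UCP1 KO 4 of iWAT left out, at -0.37 to -0.32. That for Mcoln1 (-0.24 ± 0.10) was lost in 27 of them.

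Markers of macrophages, a cell type rich in lysosomes, moved with these groups. In BAT, where 30.2% of all genes rose and 29.9% fell, 17 of the 19 macrophage genes tested rose in UCP1 KO and 0 fell. Their median change was 2.37 on the log2 scale, and their summed level was 584 to 805 CPM in UCP1 KO against 134 to 182 CPM in WT. C1qa, a complement subunit made by macrophages, rose by 2.24 ± 0.12 (adjusted p = 3.36e-12). All 7 genes of lipid-associated macrophages rose, with Lgals3 (galectin 3) at 4.94 ± 0.36, and 10 of 14 lymphocyte genes rose, with Cd4 at 2.78 ± 0.33. Of the adipocyte genes 6 of 8 fell, with Lipe, hormone-sensitive lipase, at -0.72 ± 0.11. In iWAT, where 22.3% of all genes rose and 24% fell, 12 of 20 macrophage genes fell and 0 rose. Their median was -0.74, and their summed level was 392 to 676 CPM in UCP1 KO against 613 to 1184 CPM in WT. Fcer1g, an immunoglobulin receptor subunit of myeloid cells, was at -0.64 ± 0.14 there (adjusted p = 0.000973). The part of these cells in the lysosomal values was not tested, and in such bulk RNA fewer cells of a type and less RNA per cell cannot be told apart.

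Genes of other cell types were counted beside the same shares of all genes, 30.2% higher and 29.9% lower in BAT and 22.3% and 24% in iWAT. Endothelial genes gave 6 lower of 8 in BAT, with Kdr, a receptor for VEGF, at -0.40 ± 0.08, and none called in iWAT. Fibroblast genes gave 4 higher of 8 in BAT, with the collagen gene Col3a1 at 1.31 ± 0.32, and 6 lower of 8 in iWAT, with Dpt (dermatopontin) at -1.92 ± 0.24. Of 8 adipocyte genes in iWAT, only 2 were called, where 46.3% of all genes were. The 2 were Pnpla2, adipose triglyceride lipase, higher by 0.83 ± 0.22, and Adipoq, adiponectin, lower at -0.80 ± 0.24. Genes of lipid-associated macrophages gave 2 higher and 1 lower of 7 in iWAT, with Lgals3 at 1.03 ± 0.16 and Cd9, a tetraspanin, at -0.88 ± 0.14. In UCP1 KO against WT, no muscle fibre gene of 14 was called in either depot, and no lymphocyte gene of 14 in iWAT. Yet all 14 fibre genes had negative changes in each depot, with medians of -1.52 in BAT and -0.53 in iWAT. All 14 lymphocyte genes had negative changes in iWAT, with a median of -1.54. Libraries rich in lymphocyte RNA were 4 of 6 in WT and 3 of 6 in UCP1 KO iWAT.

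**Figure D4:**
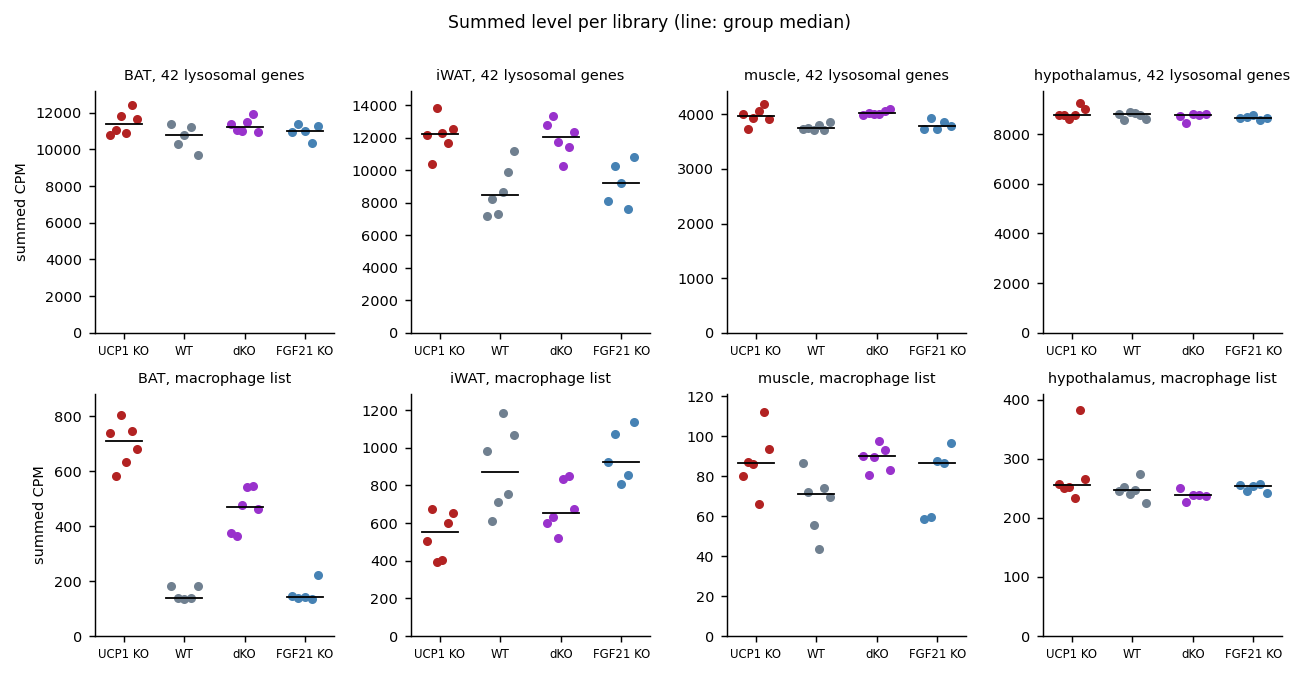
Summed CPM of the 42 lysosomal genes (upper row) and of the macrophage marker list (lower row) in each library of the 4 tissues, with UCP1 KO left of WT and dKO left of FGF21 KO. Macrophage sums are 584 to 805 in UCP1 KO BAT against 134 to 182 in WT BAT, and 392 to 676 in UCP1 KO iWAT against 613 to 1184 in WT iWAT.

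Other genes of the lysosome, from lists of known members, were read beside the 42 in UCP1 KO against WT. Their counts stand beside the 30.2% of all genes that rose and 29.9% that fell in BAT, and the 22.3% and 24% in iWAT. Of 30 further hydrolases, 13 rose (43.3%) and 9 fell (30%) in BAT, and 8 rose (26.7%) and 10 fell (33.3%) in iWAT. In BAT the first by p in each direction were Lgmn, the asparagine-specific protease legumain, at 1.22 ± 0.09 and Siae, a sialic acid esterase, at -0.59 ± 0.07. In iWAT the first by p among those that fell was Naaa, an acid amidase, at -0.99 ± 0.12. Of further membrane proteins, 13 of 24 rose (54.2%) and 1 fell (4.17%) in BAT, and 6 of 25 rose (24%) and 4 fell (16%) in iWAT. Cd63, a tetraspanin, was at 1.73 ± 0.12 and Laptm4a at -0.20 ± 0.04 in BAT, and in iWAT the channel gene Tpcn2 was at 0.98 ± 0.11 and the nucleoside transporter gene Slc29a3 at -0.86 ± 0.11. Of 14 further V-ATPase genes, 6 rose (42.9%) and 2 fell (14.3%) in BAT and 7 rose (50%) and 2 fell in iWAT, and Atp6v0b was higher by 0.58 ± 0.06 in BAT and Atp6v0a2 by 0.87 ± 0.08 in iWAT. Those that fell first were Atp6v1f in BAT (-0.36 ± 0.05) and Atp6v1g2 in iWAT (-0.61 ± 0.15).

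Lists upstream of the lysosome were counted in the same way, with no test of the difference between depots. Genes for sorting to the lysosome gave 3 higher (17.6%) and 5 lower (29.4%) of 17 in BAT, with the adaptors Gga3 at 0.34 ± 0.07 and Gga2 at -1.32 ± 0.10, and 6 higher (35.3%) and 3 lower (17.6%) in iWAT, with Ap1g1 at 0.39 ± 0.06 and Ap3b1 at -0.29 ± 0.06. The Rag arm of mTORC1, which senses amino acids at the lysosome, gave 2 higher (14.3%) and 5 lower (35.7%) of 14 in BAT, where Lamtor3 was at 0.29 ± 0.06 and Rragb, a Rag GTPase, at -2.43 ± 0.23. In iWAT it gave 7 higher (50%) and 1 lower (7.14%), with the kinase Mtor at 1.63 ± 0.16 and Fnip2 at -0.37 ± 0.11. Mtor itself was at -0.72 ± 0.08 in BAT. Autophagy genes gave 5 higher (23.8%) and 9 lower (42.9%) of 21 in BAT and 12 higher (57.1%) and 1 lower (4.76%) in iWAT. Gabarapl1, which decorates autophagosomes, was higher in both depots, by 1.26 ± 0.12 in BAT and 1.35 ± 0.20 in iWAT. Atg9b fell in BAT (-3.21 ± 0.23) and Pik3c3, the autophagy lipid kinase, fell in iWAT (-0.23 ± 0.06).

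The comparison of dKO with FGF21 KO repeats the loss of UCP1 on a background without FGF21. Its groups share no library with UCP1 KO against WT, but both comparisons use the spread estimated from all genotypes of the tissue. In BAT 22 of the 42 genes rose and 8 fell, where 29.3% of all genes rose and 28% fell, and the median was 0.26 against -0.01 over all genes. All 22 were among the 28 that rose in UCP1 KO (78.6% of those), and 6 of the 8 were among the 7 that fell there (75% of the 8 and 85.7% of the 7). Over all genes the overlap was of like size, since those called higher in both were 87.5% of the genes higher in dKO and 85% of those higher in UCP1 KO, and those called lower in both were 89% and 83.1%. Grn had 302 to 359 CPM with a median of 336 in dKO, against 128, 130, 133, 134 and 136 CPM in FGF21 KO, at 1.33 ± 0.06 (adjusted p = 3.63e-13). Npc1 had 221 to 310 CPM with a median of 248 in dKO, against 55.7, 58.2, 60.6, 62.7 and 64.5 CPM in FGF21 KO, at 2.10 ± 0.14 (adjusted p = 4.44e-11). Both genes were separate here as in the single knockout. Atp6v1h (0.88 ± 0.06) and Man2b1 (0.59 ± 0.06) also rose with no overlap, and Ids (-0.72 ± 0.06), Npc2 (-0.53 ± 0.10) and Ctsb (-0.36 ± 0.07) fell with none. Ctsd had 1816 to 2198 CPM with a median of 1971 in dKO, against 2321, 2379, 2404, 2408 and 2629 CPM in FGF21 KO, and was apart here, at -0.30 ± 0.07 (adjusted p = 0.000929). The genes called lower in dKO but not in UCP1 KO were Tpp1 (-0.19 ± 0.05) and Tfe3 (-0.14 ± 0.04), and those called higher in UCP1 KO but not in dKO were Lamp2, Glb1, Neu1, Atp6v1a, Atp6v1b2 and Mitf. Tfeb and Mitf were not called in dKO BAT, at 0.22 ± 0.11 and 0.36 ± 0.16.

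In iWAT, 11 of the 42 rose and 10 fell in dKO against FGF21 KO, where 16.8% of all genes rose and 20.5% fell, with a median of -0.01 against -0.15 over all genes. All 21 were called in the same direction in UCP1 KO, being 78.6% of the 14 that rose there and 76.9% of the 13 that fell. Over all genes, those called higher in both were 96.4% of the genes higher in dKO and 72.5% of those higher in UCP1 KO, and those called lower in both were 77.1% and 65.9%. Of markers of other cells in this pair, 11 of 14 muscle fibre genes (median -6.82) and 4 of 8 fibroblast genes were lower. Lower calls among macrophage genes, 5 of 20, were near the 20.5% of all genes, and their median was -0.46 against -0.15 over all genes. Fibre genes summed to 118 to 271 CPM in dKO and 68.2 to 63100 CPM in FGF21 KO, and without the libraries rich in muscle RNA, 1 of them in FGF21 KO and 0 in dKO, 11 of the 42 rose and 12 fell. The part of macrophages and fibroblasts was not tested. Lipa had 223 to 345 CPM with a median of 283 in dKO, against 74.0, 79.8, 80.0, 81.1 and 101 CPM in FGF21 KO, at 1.76 ± 0.15 (adjusted p = 1.24e-07). Ctsz had 290 to 528 CPM with a median of 367 in dKO, against 135, 147, 149, 153 and 155 CPM in FGF21 KO, at 1.42 ± 0.16 (adjusted p = 1.32e-06). Ids had 27.2 to 39.9 CPM with a median of 30.2 in dKO, against 48.9, 49.8, 53.4, 54.3 and 62.7 CPM in FGF21 KO, at -0.76 ± 0.09 (adjusted p = 2.23e-06). These 3 genes had groups well apart, as did Npc1 (1.01 ± 0.15), Atp6v1h (0.94 ± 0.15), Manba (-0.53 ± 0.08) and Naglu (-0.58 ± 0.10), while Man2b1 overlapped (-0.53 ± 0.13). Ctsk overlapped in this pair, with 14.2 to 20.6 CPM in dKO against 13.5, 22.2, 24.0, 45.4 and 46.1 CPM in FGF21 KO, and its call (-0.69 ± 0.23) was lost without dKO 2, dKO 3, FGF21 KO 2 or FGF21 KO 5, at -0.67 to -0.49. Tfeb (-0.23 ± 0.18), Tfe3 (0.12 ± 0.08) and Mitf (-0.41 ± 0.17) were not called.

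Loss of FGF21 was set apart in a pair of comparisons. Between FGF21 KO and WT, 0 of the 42 were called in each of the 4 tissues by edgeR. Over all genes the share called was 0.0198% in muscle, 0.00555% in hypothalamus, 0.025% in BAT and 0.00597% in iWAT. At an unadjusted p under 0.05 there were 2 genes in muscle, 0 in hypothalamus, 4 in BAT and 1 in iWAT, and DESeq2 called 1 in BAT and 0 elsewhere. Their log2 fold changes spanned -0.26 to 0.52 in BAT. Between dKO and UCP1 KO, 1 gene was called in BAT, where 1.73% of all genes were, and 0 in iWAT (0.0358%), muscle (0%) and hypothalamus (0.0111%), with 9, 1, 1 and 0 at an unadjusted p under 0.05 and 3, 0, 0 and 0 called by DESeq2. The gene was Atp6v1h, with 181 to 203 CPM and a median of 194 in dKO BAT, against 155 to 178 CPM and a median of 166 in UCP1 KO BAT. All dKO libraries were above all UCP1 KO libraries, but the call was marginal at 0.22 ± 0.06 (adjusted p = 0.0459). The count was 0 without the filter on low counts and 0 to 2 when 1 library was left out. In the same comparison in BAT, 5 of 19 macrophage genes were called lower and 0 higher, where 0.967% of all genes were lower. Their median was -0.55, with 18 negative. Of the 42 lysosomal genes, 29 were negative, with a median of -0.06. Over all 16032 genes, 8300 were negative, with a median of -0.01. The part of macrophages in these values was not tested. The interaction of both knockouts was called for 0 of the 42 in each tissue, where 0% of all genes were. The genes at an unadjusted p under 0.05 numbered 6 in BAT, 2 in muscle and 0 each in iWAT and hypothalamus, and DESeq2 called 0 in each.

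In muscle the changes were few and small. Between UCP1 KO and WT, 7 of the 42 rose and 2 fell, where 5.89% of all 15120 genes rose and 6.42% fell, with a median of 0.07 against 0.01 over all genes. Ctsb had 351 to 370 CPM with a median of 357 in UCP1 KO, against 287 to 310 CPM with a median of 304 in WT. The groups were apart, at 0.26 ± 0.03 (adjusted p = 3.17e-05), the opposite direction to BAT. Hexa had 46.9 to 56.3 CPM with a median of 48.1 in UCP1 KO, against 42.1 to 45.7 CPM with a median of 43.4 in WT, at 0.18 ± 0.04 (adjusted p = 0.00354), also apart. Hexa was called in 3 tissues, higher in BAT and muscle and lower in iWAT. Gusb had 10.9 to 15.6 CPM with a median of 13.2 in UCP1 KO, against 9.17 to 11.3 CPM with a median of 10.1 in WT, at 0.40 ± 0.07 (adjusted p = 0.000612) with overlap. Lipa had 8.94 to 11.2 CPM with a median of 10.1 in UCP1 KO, against 7.28 to 8.98 CPM with a median of 7.95 in WT, at 0.34 ± 0.08 (adjusted p = 0.00501), with a slight overlap. The others that rose were Ctsl (0.24 ± 0.06), Grn (0.26 ± 0.07) and Ctss (0.59 ± 0.18), and macrophage genes gave 4 higher and 0 lower of 19 in the same comparison. The summed macrophage level was 66.2 to 112 CPM in UCP1 KO and 43.7 to 86.3 CPM in WT muscle, which overlapped, and its part was not tested.

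The 2 genes that fell in muscle were Naglu and Mitf. Naglu had 3.86 to 4.50 CPM with a median of 4.28 in UCP1 KO, against 4.78 to 5.23 CPM with a median of 4.99 in WT, apart but marginal, at -0.24 ± 0.08 (adjusted p = 0.0493). Mitf had 15.3 to 17.9 CPM with a median of 16.7 in UCP1 KO, against 17.4 to 19.3 CPM with a median of 18.4 in WT, at -0.15 ± 0.05 (adjusted p = 0.0471). Leaving out 1 library removed the call of Naglu in 18 fits, at -0.26 to -0.21, of Mitf in 15 fits, at -0.15 to -0.12, and of Ctss in 8 fits, at 0.51 to 0.59. Tfeb had 42.7 to 62.4 CPM in UCP1 KO and 48.6 to 60.6 CPM in WT, and Tfe3 had 10.9 to 12.3 CPM in UCP1 KO and 10.6 to 12.8 CPM in WT, and neither was called. In dKO against FGF21 KO muscle, 4 genes rose and 0 fell, where 3.63% of all genes rose and 4.13% fell, with a median of 0.04 against 0.00. They were Ctsb (0.24 ± 0.03), Hexa (0.21 ± 0.04), Gusb (0.24 ± 0.07) and Lipa (0.26 ± 0.08), all among the 7 that rose in UCP1 KO (57.1% of those), where over all genes those higher in both were 63.2% of the genes higher in dKO and 39% of those higher in UCP1 KO. The call of Gusb was lost in 14 of the fits that each left out 1 library, at 0.20 to 0.26, and that of Lipa in 8, at 0.21 to 0.28. Leaving out 1 library gave 2 to 7 called genes, with 2 left without dKO 5, dKO 6, FGF21 KO 2 or FGF21 KO 5 and 7 without UCP1 KO 5.

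In hypothalamus 0 of the 42 genes were called in UCP1 KO against WT or in dKO against FGF21 KO by edgeR, where 0.0555% of all 18020 genes were called in each. At an unadjusted p under 0.05 there were 1 and 2 genes, and DESeq2 called 0 and 1. The log2 fold changes of UCP1 KO against WT spanned -0.12 to 0.18. The MiT/TFE factors had 7.92 to 9.79 CPM for Tfeb, 37.4 to 42.5 for Tfe3 and 6.28 to 12.2 for Mitf in UCP1 KO, against 6.52 to 9.24, 36.3 to 40.5 and 7.84 to 10.8 in WT. These ranges overlap throughout. Man2b1 was the gene that DESeq2 called, with 45.2, 48.0, 48.4, 49.5 and 49.8 CPM in dKO, against 53.2, 54.9, 56.4, 57.3 and 57.7 CPM in FGF21 KO. The groups were apart, at -0.21 ± 0.05 (edgeR adjusted p = 0.147, DESeq2 adjusted p = 0.0191). In UCP1 KO against WT hypothalamus Man2b1 was at -0.12 ± 0.04 (adjusted p = 0.882), and without UCP1 KO 5 it was called by edgeR in both comparisons, at -0.17 (adjusted p = 0.0375) and -0.21 (adjusted p = 0.0042). UCP1 KO 5 had 60.38 CPM of Man2b1, where the other UCP1 KO libraries had 47.67 to 50.35 CPM. Man2b1, at chr8:85083270-85098282, lies 1.78 Mb from the targeted gene Ucp1.

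**Figure D5:**
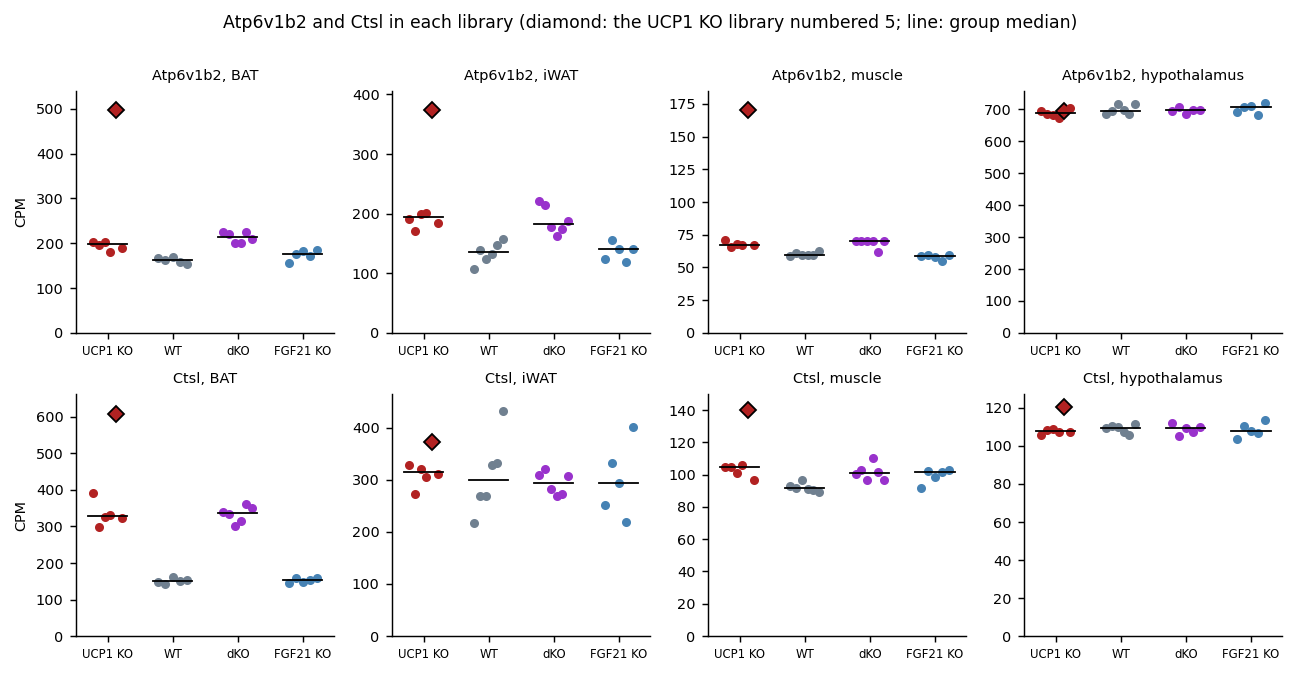
CPM of Atp6v1b2 and Ctsl in each library of the 4 tissues by genotype, with UCP1 KO left of WT and dKO left of FGF21 KO. Diamonds mark the UCP1 KO library numbered 5 of each tissue, which stands at 497 CPM of Atp6v1b2 in BAT, 373 in iWAT and 170 in muscle, above all other libraries of its tissue.

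Atp6v1b2, the B2 subunit of the V1 sector, was set apart by single libraries, and was looked at after its values were seen. In BAT the 6 UCP1 KO libraries had 180 to 497 CPM with a median of 199, against 153, 158, 164, 167 and 168 CPM in WT. In iWAT they had 170 to 373 CPM with a median of 195, against 108 to 158 CPM with a median of 136 in WT, and in muscle 65.3 to 170 CPM with a median of 67.5, against 58.8 to 62.4 CPM with a median of 59.6 in WT. In each of these 3 tissues the groups were apart, and the highest value was that of the UCP1 KO library numbered 5, far above the other 5. The number is the order of deposit, and the labels do not say whether these libraries came from 1 mouse. With it the log2 fold change was 0.59 ± 0.19 in BAT, 0.71 ± 0.15 in iWAT and 0.50 ± 0.18 in muscle, the last not called (adjusted p = 0.0741). Without it the values were 0.26 (adjusted p = 0.000221), 0.48 (adjusted p = 0.000912) and 0.17 (adjusted p = 0.00226), all 3 called. In dKO against FGF21 KO the change was 0.29 in BAT, not called with UCP1 KO 5 in the fit (adjusted p = 0.207) and called without it (adjusted p = 4.09e-05), and in muscle it was 0.24, with adjusted p = 0.487 and 7.29e-05. In hypothalamus UCP1 KO 5 had 695 CPM, inside the range of its group (673 to 703 CPM).

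Among UCP1 KO libraries, Ctsl too was highest in the one numbered 5 of each tissue. In iWAT that library had 373 CPM, inside the 217 to 431 CPM of WT. In BAT it had 608 CPM, where the other UCP1 KO libraries had 300 to 393 CPM and WT had 143 to 161 CPM. In muscle it had 140 CPM, where the others had 96.5 to 106 CPM and WT had 89.4 to 96.4 CPM. Without that library Ctsl was still called, at 1.15 in BAT and 0.16 in muscle (adjusted p = 0.00755), against 1.33 and 0.24 with it. Exons of Ctsl overlap the antisense gene Gm47123 over 28.2% of their length.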

How the data were processed

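Per the labels' protocols, poly(A) RNA of male mice was made into stranded TruSeq libraries and read as 100 bp pairs. Per the submitters' processing notes, the authors aligned reads with STAR to mm10 and counted them with HTSeq, and their deposited values are raw counts per gene for each library, with versions and the strand setting of counting not given in the sources used here. Each file held 32765 rows. Rows with the same name were summed (66 names), 2 rows naming no gene were left out (at most 0.22% of counts), and 32697 genes were kept. Same-group libraries were compared over 210 pairs, and all differed by more than sampling noise (chi-square per degree of freedom 3.63 to 710).

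Each tissue was fitted with its 4 genotypes in edgeR 4.0.16 (limma 3.58.1, R 4.3.3) with filterByExpr, TMM factors and the robust quasi-likelihood F test. The difference between BAT and iWAT was fitted over both depots, and p-values were adjusted by Benjamini-Hochberg over all genes tested, with calls at an adjusted p under 0.05. The biological coefficient of variation was 0.388 in iWAT, 0.257 in BAT, 0.101 in muscle and 0.0930 in hypothalamus. An SE is the log2 fold change divided by the square root of F, and an error given as SD is the spread over libraries. Depth was 18.1 to 69.9 M counts per library, and p-values cover only the spread between these samples. Alternatives were DESeq2 1.42.0, its size factors (RLE), no filter, the compared groups only and each library left out. Settings that leave out libraries rich in muscle, lymphocyte or choroid plexus RNA (mean log2 of CPM + 1 over the marker list above 7, 3 or 4) were added after seeing the data. Tests were checked on counts simulated with each gene's fitted spread. These hold no outlying libraries and no shifts in cell types, so the check does not cover them. Python 3.11.15, pandas 2.3.3 and matplotlib 3.10.9 made the summaries and figures.

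The 42 genes and the other gene lists were chosen with earlier results of these data known. Genes given with values are the 3 MiT/TFE factors in every tissue, the 4 called genes per direction with the smallest p in each tissue and comparison, up to 6 called in opposite directions in BAT and iWAT, those called in 3 tissues, the highest and lowest per kilobase in WT, and the first gene by p of each list in each direction in fat, of which 1 is not reported here. Other genes of the 42 given with values, Atp6v1b2 and Ctsl among them, were chosen after their values were seen.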

Additional observations from a re-analysis of the deposited data

Results flagged for a closer look

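The highest or lowest library was set against the others of its group in 144 groups of 5 or 6 libraries (the genes named by rule, Atp6v1b2, Ctsl and the summed 42 genes), and 13 stood apart by Dixon's test at 95%, where chance gives about 1 in 20. Atp6v1b2 and Ctsl, added after their values were seen, gave 7 of these in 32 groups, and the other 112 groups gave 6, which is near that rate. In UCP1 KO libraries numbered 5, Atp6v1b2 had 497.2 CPM in BAT (others 179.5 to 202.6), 373.2 CPM in iWAT (others 170.3 to 200.8) and 170.4 CPM in muscle (others 65.33 to 70.73). In the same-numbered libraries Ctsl had 607.8 CPM in BAT (others 299.8 to 392.7), 140.2 CPM in muscle (others 96.52 to 105.8) and 120.4 CPM in hypothalamus (others 105.8 to 109), and Hexa had 56.28 CPM in muscle (others 46.93 to 49.45). Further genes, picked after their values were seen, were high in the hypothalamus library of that number. Ctsd had 542.3 CPM (others 379 to 405.9) and Ctss 80.6 CPM (others 48.68 to 53.54). Ctsz had 44.7 CPM (others 26.78 to 31.61) and Man2b1 60.38 CPM (others 47.67 to 50.35). Not all genes were high there, and Ids was the lowest of its group, at 550.8 CPM. The summed macrophage level of the hypothalamus library of that number was 382.3 CPM, and whether it plays a part there was not tested. Atp6v1b2 was low in muscle dKO 5, at 61.95 CPM (others 69.97 to 70.3). Ctsb was low in BAT WT 5, at 1771 CPM (others 2143 to 2225). The remaining high values were 2629 CPM of Ctsd in BAT FGF21 KO 1 (others 2321 to 2408), 101 CPM of Lipa in iWAT FGF21 KO 2 (others 74 to 81.1) and 15.89 CPM of Manba in iWAT dKO 4 (others 12.66 to 13.52). The 42 genes summed to 8442 CPM in hypothalamus dKO 2 (others 8719 to 8817).

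The effect of UCP1 KO, as a log2 fold change, was called in opposite directions in BAT and iWAT for 12 genes. The difference itself, from the same libraries, was called for each. As BAT minus iWAT it was 3.22 for Ctsk, 2.48 for Ctsh, 2.38 for Ctsc, 1.46 for Man2b1, 0.93 for Ctsa, 0.88 for Hexa, 0.84 for Manba, 0.78 for Asah1 and 0.45 for Glb1. It was -1.73 for Ctsz, -1.24 for Ctsd and -0.98 for Smpd1.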

How the results depend on the processing

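None of the 157 called values of single genes changed sign under any alternative run, while 64 of the 221 not called did under at least 1, such as Ctsl in UCP1 KO against WT iWAT, at 0.05, and at -0.01 without UCP1 KO 5. The counts of the 42 genes called in fat for UCP1 KO against WT, for dKO against FGF21 KO and for the difference between depots stayed within 1.5 times under every alternative. Without any filter on low counts, dKO against UCP1 KO called 0 genes in BAT (1 with it) and dKO against FGF21 KO called 2 in muscle (4 with it). DESeq2 called 3 for dKO against UCP1 KO and 1 for FGF21 KO against WT in BAT, and 1 for dKO against FGF21 KO in hypothalamus. With the compared groups only, UCP1 KO against WT called 5 in muscle (9 with all groups), and without BAT libraries rich in muscle RNA, dKO against UCP1 KO called 0. Leaving out 1 library gave 0 to 2 for dKO against UCP1 KO in BAT, 2 to 7 for dKO against FGF21 KO in muscle, and 0 to 1 in hypothalamus for UCP1 KO against WT and for dKO against FGF21 KO. Apart from the constructions named (more genes or fewer samples), the cause was not tested. The calls of Ctsh (adjusted p = 0.0622) and Glb1 (adjusted p = 0.0831) in UCP1 KO iWAT were lost without libraries rich in lymphocyte RNA, a setting that moved the median of all genes by 0.11. In BAT, Lamp2 (adjusted p = 0.0848), Gaa (adjusted p = 0.0685) and Atp6v1b2 (adjusted p = 0.0747) lost theirs with the compared groups only. No paired analysis was possible because no label numbers the replicates or ties a library to a mouse. Counting error alone was highest for the genes of lowest mean count, at 9.67% for Ctsk in hypothalamus, 8.78% for Glb1 in muscle, 5.75% for Gla in iWAT and 5.44% for Mitf in BAT, and was over 5% for 8 of the 42 genes in muscle, 3 in hypothalamus and 1 in each fat depot.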

Other observations

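Besides Man2b1, 4 of the 42 genes lie on chromosome 8 with Ucp1 (Atp6v1b2 at 14.18 Mb from it, Asah1 at 41.92, Lamp1 at 70.12 and Mcoln1 at 79.78 Mb), and 4 lie on chromosome 7 with Fgf21 (Ctsc at 42.66, Smpd1 at 59.94, Tpp1 at 60.13 and Ctsd at 96.76 Mb).

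The summed macrophage level in UCP1-deficient fat was 366 to 548 CPM in dKO BAT against 136 to 224 CPM in FGF21 KO BAT, and 520 to 850 CPM in dKO iWAT against 806 to 1138 CPM in FGF21 KO iWAT, the last pair overlapping.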
